A study of Mus musculus with 6 samples.

Results

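The choroid plexus is the epithelium inside the brain ventricles that secretes cerebrospinal fluid, and its transcripts appear in a cortical sample only where ventricle lining was taken with the tissue or where other cells use the same gene. A set of 8 genes was followed here: Ttr, Aqp1, Clic6, Folr1, Kl, Prlr and Otx2, which are strongly used in choroid plexus, and Foxj1, which marks ciliated ependyma. They were taken by gene symbol, as a check of dissection, and were selected on their values on these arrays, including SAHA minus saline. 7 of the 8 had a probe set that pairs with exactly 1 symbol, out of 19938 genes in all, and each of the 7 had 1 such probe set. Prlr was not analysed here. Their differences are therefore given below as descriptions, with an interval and no test.

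All mice were wild type, of strain 129S6/SvEv and aged 8 to 12 weeks, and frontal cortex was used. 3 arrays were of mice given SAHA at 20 mg per kg intraperitoneally for 21 days and 3 of mice given vehicle, named saline in the sample titles, and tissue was dissected from both sides 1 day after the last injection. SAHA, or vorinostat, is a hydroxamic acid that blocks the zinc-dependent enzymes which take acetyl groups off histones. The labels do not say that each array is a separate mouse, so the intervals reflect the scatter among 6 arrays and that scatter may be technical. The values are log2 RMA signals from whole-transcript arrays. A signal depends on its probes, so levels of different genes are not compared, and the table has no detection calls. The number of arrays limits the precision.

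2 arrays stood apart in sex-linked transcripts. Xist had a signal of 10.9 on saline replicate 1 and at most 4.88 on the other 5 arrays, while the Y-linked gene Eif2s3y was at 7.80 on SAHA replicate 3 and between 9.18 and 9.25 elsewhere. On saline replicate 1 Eif2s3y was at 9.20, so that array had high signals of both transcripts. Whether these arrays hold RNA of more than 1 mouse was not tested, and Aqp1 and the median of the set are also given without them. Markers of cortical neurons were at mean signals between 10.27 and 10.29 in SAHA and between 10.23 and 10.26 in saline. These means were close on all arrays, but they do not identify the region of cortex taken. Of the 8 markers, 5 were higher in SAHA without overlap between the groups and 1 lower (13.6% and 10.4% among all genes). In the fit across all genes (limma, Benjamini-Hochberg), 0 of 19938 genes passed an adjusted p of 0.05, and 3472 lay at an unadjusted p under 0.05. The count was 28 with a variance trend in the fit and 27 when genes dimmer than the median were left out, so each count of 0 past the test below holds for the fit without these settings. The difference followed the signal: over deciles of the genes ordered by mean signal, its median was between 0.062 and 0.11 in the 5 dimmest and between -0.059 and 0.019 in the others. 6 of the 7 genes lie in the dimmer deciles.

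In the choroid plexus, transthyretin (Ttr) carries thyroid hormone and, with retinol-binding protein, vitamin A; aquaporin 1 (Aqp1) is a water channel of the apical membrane; and folate receptor alpha (Folr1) moves folate from blood to cerebrospinal fluid. Klotho (Kl) is a co-receptor for FGF23, and Otx2 is a homeodomain factor that choroid plexus needs to form and to persist. Foxj1 switches on the genes of motile cilia. Aqp1 is also the water channel of red cells and of some endothelia outside the brain.

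Promoter windows were found for 4 of the 8 genes, Aqp1, Kl, Otx2 and Prlr, in the RefSeq table of build GRCm38.p6, and 3 are shown because their genes carry the main contrast of the results: Aqp1, which had the greatest difference between groups, Kl, whose difference was nearest to 0, and the one Otx2 window that holds a word read by Otx2 itself. Each is the 250 bases before a transcript start, 5′ to 3′ on the strand of the gene. Capitals mark GGGCGG, the core of a GC box bound by Sp factors, or TAATCC, the word preferred by Otx-type homeodomains, on either strand. These words do not overlap in the windows shown. Aqp1 lies on the + strand at chr6:55336049-55336298, Kl on the + strand at chr5:150952357-150952606 and the Otx2 window on the - strand at chr14:48665110-48665359.
Aqp1: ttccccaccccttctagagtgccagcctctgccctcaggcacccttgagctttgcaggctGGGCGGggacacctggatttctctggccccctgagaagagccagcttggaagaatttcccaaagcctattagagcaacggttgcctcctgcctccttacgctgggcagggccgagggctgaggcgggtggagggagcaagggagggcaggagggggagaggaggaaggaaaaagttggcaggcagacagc
Kl: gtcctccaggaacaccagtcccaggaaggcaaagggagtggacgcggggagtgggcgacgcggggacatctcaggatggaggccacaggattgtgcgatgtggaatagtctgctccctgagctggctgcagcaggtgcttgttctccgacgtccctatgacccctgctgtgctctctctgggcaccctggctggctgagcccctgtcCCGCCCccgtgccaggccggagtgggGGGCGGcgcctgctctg
Otx2: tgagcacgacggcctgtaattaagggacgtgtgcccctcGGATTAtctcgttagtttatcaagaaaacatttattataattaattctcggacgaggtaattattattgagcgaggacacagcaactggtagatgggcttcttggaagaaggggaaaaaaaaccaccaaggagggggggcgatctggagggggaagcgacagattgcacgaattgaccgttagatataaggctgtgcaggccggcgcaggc
GGGCGG occurred once in the Aqp1 window, starting at position -190 from the transcript start, and at 2 places in the Kl window, and 32.7% of all 32851 windows of this length hold it. TAATCC occurred in 1 of the 9 windows of the 4 genes, that of Otx2, against 6.3% of all windows. Aqp1 and Kl, whose differences were unlike, both hold the GC box word and lack TAATCC. A match is only a string of letters and does not show that a factor binds there.

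Ttr, the transthyretin gene and the classical mark of choroid plexus in a brain sample, varied more than any other gene of the set, and it did so inside the saline group. Its signal was 6.94, 7.11 and 6.71 on SAHA replicates 1, 2 and 3, against 7.08, 6.49 and 8.06 on saline replicates 1, 2 and 3. Saline replicate 3 held the highest value and saline replicate 2 the lowest, with all SAHA arrays between them. The highest and lowest saline values were 1.57 log2 apart, or 2.98-fold, and only 4 of the 19938 genes had a wider range over the 6 arrays. The group means were 6.92 ± 0.20 in SAHA and 7.21 ± 0.80 in saline (SD, n = 3), a difference of -0.29 with a 95% interval of -1.08 to 0.50. The sign of that difference was set by 1 array: without saline replicate 3 it was 0.14, and without saline replicate 2 it was -0.65.

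**Figure D1:**
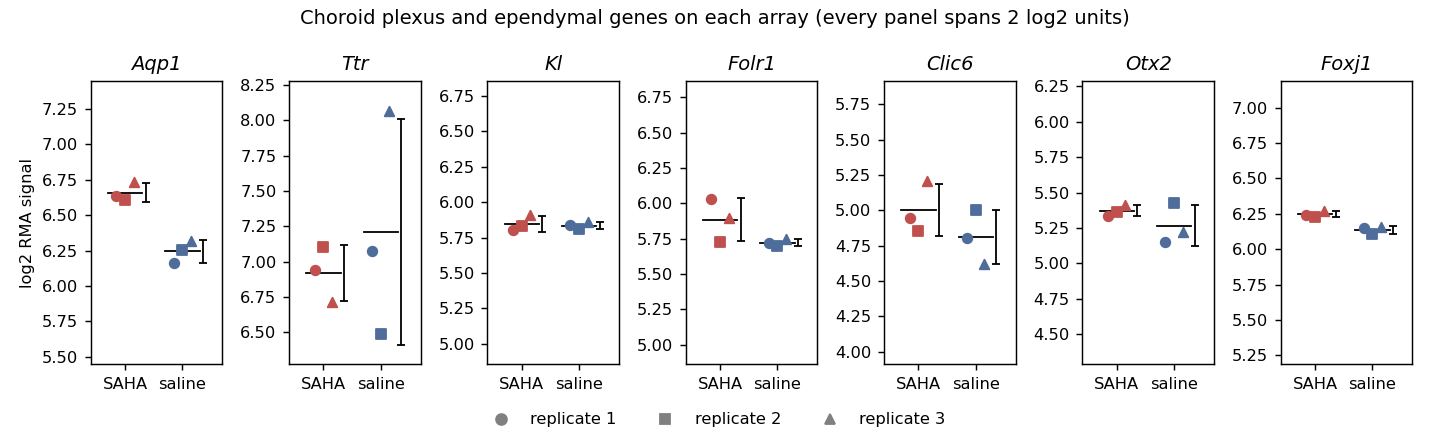
Signal of the 7 measured genes on each array (log2 RMA signal, y axis; SAHA left in red, saline right in blue), with the group mean as a line and the SD as a bar (n = 3). Every panel spans the same height in log2, so the spread of Ttr in saline, from 6.49 to 8.06, can be set beside the narrow groups of Foxj1 and Kl and the separated groups of Aqp1.

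No other gene of the set had a rise like that of Ttr on saline replicate 3. There Ttr lay 1.20 above the mean of the other 5 arrays, while Aqp1 lay at -0.16 and Clic6 at -0.34 on the same measure. Of the 7 genes, 2 were above the mean of the other arrays on saline replicate 3, where 6 were on SAHA replicate 3. The other arrays include those of SAHA. Among the saline arrays alone, Aqp1, Kl, Folr1 and Foxj1 were also highest on replicate 3. Their ranges within saline were small, at 0.16, 0.049, 0.052 and 0.052. Clic6 and Otx2 were highest on saline replicate 2. A list of 24 measured choroid plexus epithelium genes outside the set was also set against the mean of the other 5 arrays. Its median was 0.014 on saline replicate 3, with a highest value of 0.19. The mean signal of the 24 genes was 6.38, 6.27 and 6.35 on SAHA replicates 1, 2 and 3, against 6.23, 6.30 and 6.31 on saline replicates 1, 2 and 3. The array with the most Ttr did not stand apart in this mean, though it was the highest of the saline arrays. It held the highest value of the 6 arrays for 3 of the 24 genes, where SAHA replicate 1 did for 7.

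Markers of striatal medium spiny neurons, the tissue bordering the lateral ventricle below the cortex, had higher mean signals on replicate 3 of both groups than on the other arrays. Their mean signal over 9 genes was 7.67, 7.64 and 7.99 on SAHA replicates 1, 2 and 3, against 7.75, 7.66 and 8.01 on saline replicates 1, 2 and 3. Rgs9, a striatal regulator of G-protein signalling, was at 7.03, 6.89 and 7.52 in SAHA and at 7.07, 7.09 and 7.76 in saline. Pde10a, the striatal phosphodiesterase, was at 8.57, 8.52 and 8.87 in SAHA and at 8.79, 8.74 and 9.38 in saline. Tac1, the substance P precursor of striatal neurons that project to the midbrain, was at 7.42, 7.55 and 7.81 in SAHA and at 8.07, 7.78 and 8.23 in saline. These 3 had the widest ranges of the list, and replicate 3 was the highest array of its group for each. The list was not uniform: 6 of its 9 genes lay above the mean of the other 5 arrays on saline replicate 3, and Ppp1r1b, Gpr6 and Six3 lay below it, at -0.084, -0.077 and -0.12. On SAHA replicate 3 all 9 lay above it. Ttr on SAHA replicate 3 was the lowest of the SAHA arrays. The contribution of striatal or ventricular tissue to the Ttr values was not tested.

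**Figure D2:**
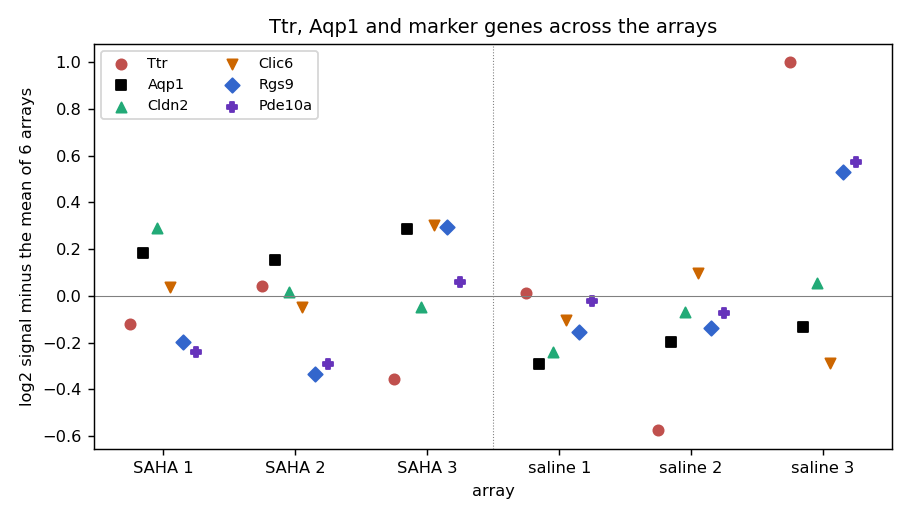
Signal of Ttr, Aqp1, Clic6, the choroid plexus tight-junction gene Cldn2 and the striatal genes Rgs9 and Pde10a on each array, as log2 signal minus the gene's mean over the 6 arrays (y axis; arrays on the x axis). On saline replicate 3 Ttr, Rgs9 and Pde10a have their highest points and Clic6 its lowest, whereas on SAHA replicate 3 Rgs9 is above 0 and Ttr below it.

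Aqp1, the apical water channel, had the greatest difference between groups in the set. Its signal was 6.64, 6.61 and 6.74 on SAHA replicates 1, 2 and 3, against 6.16, 6.26 and 6.32 on saline replicates 1, 2 and 3. All SAHA values lay above all saline values. The means were 6.66 ± 0.068 in SAHA and 6.24 ± 0.080 in saline (SD, n = 3), a difference of 0.42 (SE 0.068, 95% interval 0.26 to 0.57) or 1.33-fold. Genes in the same signal decile had a median difference of 0.098, which leaves 0.32 for Aqp1. Quantile normalization of the arrays gave 0.36, and cyclic loess gave 0.34. Leaving out each array in turn gave 0.37 to 0.45, and without both saline replicate 1 and SAHA replicate 3 it was 0.33. Without those 2 arrays the median over the set was 0.089.

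Of the 7 measured genes, Aqp1 and Foxj1 had groups that did not overlap, both with SAHA higher. Over all genes 13.6% did not overlap with SAHA higher and 10.4% with SAHA lower, and nothing is read from the count, because the genes were picked with this contrast known. 6 of the 7 had a higher mean in SAHA, where 52.9% of all genes did. Their median difference was 0.11, against 0.011 over all genes and 0.10 for the median over the signal deciles in which they lie.

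**Figure D3:**
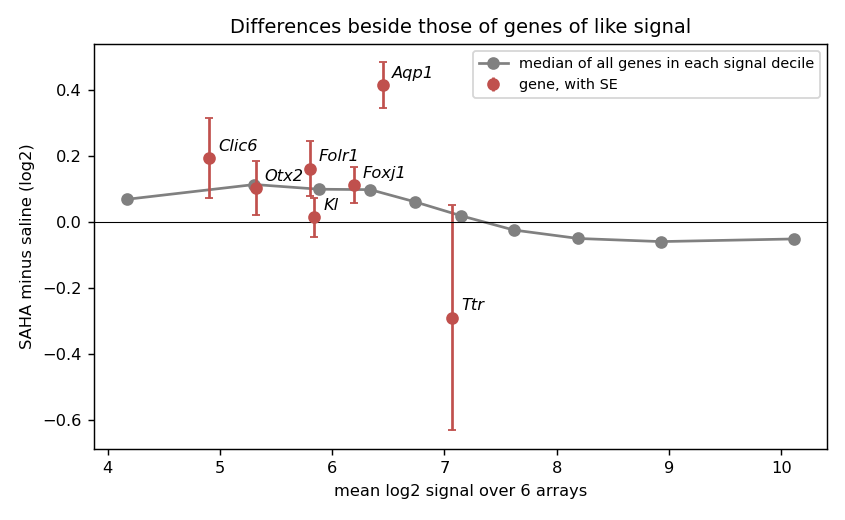
Difference of each gene, SAHA minus saline (log2, y axis, bars are SE), against its mean signal over the 6 arrays (x axis), with the median difference of all genes in each signal decile in grey. Aqp1 lies 0.32 above the grey line's value for its decile, Otx2 and Foxj1 lie close to the line, and Ttr lies below it with the widest bar.

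Aqp1 and Ttr thus had unlike patterns over the arrays. The 5 genes whose profile lay nearest to that of Aqp1, among 9664 candidates at or above the median signal, were Col22a1, a collagen, Oxt, the oxytocin precursor, Zfp513, a zinc finger gene, Tnfsf11, the cytokine RANKL, and Defb25, a defensin. Their root mean square distances over the 6 arrays were 0.026, 0.028, 0.036, 0.051 and 0.056 log2, where the profile of Aqp1 itself had a root mean square of 0.22. The genes nearest to Ttr, Vcpkmt, Pde10a, Gng5, Eloa and Lpl, lay at 0.35 to 0.37, where the profile of Ttr had 0.50. Dimmer genes, among them most choroid plexus and ependymal markers, were not searched.

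Blood cell genes are given beside Aqp1 because red cells carry it too. All 6 measured genes of that list had a higher mean in SAHA (52.9% among all genes), 4 of them without overlap (13.6% among all genes) and 0 past the test, at mean signals of 5.85, 5.85 and 5.94 on SAHA replicates 1, 2 and 3, against 5.59, 5.65 and 5.72 on saline replicates 1, 2 and 3. Slc4a1, the anion exchanger of the red cell membrane, was at 6.74, 6.46 and 6.47 in SAHA and at 6.14, 6.18 and 6.20 in saline. It differed by 0.38 (SE 0.084, adjusted p = 0.124 in limma). S100a8, a calcium-binding protein of neutrophils, differed by 0.46 (SE 0.11, adjusted p = 0.138 in limma), and Camp, a neutrophil antimicrobial peptide, by 0.25 (SE 0.081, adjusted p = 0.205 in limma). Alas2, the haem synthesis enzyme of red cell precursors, differed by 0.044 (SE 0.090) and Ngp, a neutrophil granule protein, by 0.0068 (SE 0.068), both with overlapping groups. The globin genes were not analysed here, and the part of blood in the Aqp1 values was not tested. Of 13 endothelial genes, 9 had a higher and 4 a lower mean in SAHA, where 52.9% of all genes were higher. Their median difference was 0.055, and 0.059 after cyclic loess normalization. 4 were higher without overlap and 0 lower (13.6% and 10.4% among all genes), with 0 past the test. Vwf, the clotting factor stored in endothelium, had the highest difference, 0.29 (SE 0.075, adjusted p = 0.147 in limma), and Emcn, an endothelial surface mucin, the lowest, -0.10 (SE 0.11).

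The other aquaporins differed in both directions, with more of them higher in SAHA. Of 11 measured, 8 had a higher and 3 a lower mean in SAHA, where 52.9% of all genes were higher. Their median was 0.15, where their signal deciles gave 0.098, and it was 0.055 after cyclic loess normalization. 2 of the 11 did not overlap, both with SAHA higher (13.6% among all genes). 0 of them passed in limma, with 3 at an unadjusted p under 0.05, as were 3472 of all 19938 genes. Aqp4, the water channel of astrocyte end-feet and the main aquaporin of cortex, was at 8.79, 8.68 and 8.73 in SAHA and at 8.89, 8.70 and 8.77 in saline, a difference of -0.055 (SE 0.070). The groups of Aqp4 overlapped, unlike those of Aqp1. The widest ranges were those of Mip, the lens aquaporin, Aqp8 and Aqp6, at 0.62, 0.50 and 0.50, each with overlapping groups. Of 7 genes of epithelial ion transport, 2 were higher in SAHA without overlap and 1 was lower (13.6% and 10.4% among all genes). The lower one was not a transporter but Car2, a carbonic anhydrase, at -0.14 (SE 0.066). Car14, also a carbonic anhydrase, is on this list too. Slc4a2, a chloride and bicarbonate exchanger that choroid plexus places on its basolateral side, was at 7.02, 6.99 and 7.10 in SAHA and at 6.77, 6.84 and 6.81 in saline, a difference of 0.23 (SE 0.059, adjusted p = 0.148 in limma). Slc12a2, the sodium, potassium and chloride cotransporter of the epithelium, differed by 0.027 (SE 0.080).

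Clic6 is a chloride intracellular channel protein found in choroid plexus epithelium. Its signal was 4.94, 4.86 and 5.21 on SAHA replicates 1, 2 and 3, against 4.80, 5.001 and 4.62 on saline replicates 1, 2 and 3. The groups overlapped, and the 2 extremes were SAHA replicate 3 and saline replicate 3. The difference was 0.19 with a 95% interval of -0.086 to 0.47, and it fell to 0.092 without SAHA replicate 3 and was 0.10 without saline replicate 3. Of its relatives, Clic1, Clic3, Clic4 and Clic5, 0 had groups that did not overlap, and their differences lay between -0.10 and 0.10.

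Folr1, the choroidal folate receptor, had signals of 6.03, 5.73 and 5.89 on SAHA replicates 1, 2 and 3, against 5.72, 5.70 and 5.75 on saline replicates 1, 2 and 3. SAHA replicates 1 and 3 lay above all saline arrays and SAHA replicate 2 lay among them. The difference was 0.16 with a 95% interval of -0.030 to 0.35, and 0.068 after cyclic loess normalization. It was 0.088 without SAHA replicate 1.

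The 3 other folate genes measured also had higher means in SAHA. Folr2, folate receptor beta, which macrophages carry, was at 6.23, 5.90 and 6.002 in SAHA and at 5.48, 5.64 and 5.47 in saline, with no overlap. Its difference of 0.51 (SE 0.096) had an adjusted p of 0.120 in limma, and it was 0.42 after cyclic loess normalization. Slc19a1, the reduced folate carrier, was at 8.43, 8.55 and 8.41 in SAHA and at 8.00, 8.12 and 8.26 in saline, also with no overlap, a difference of 0.33 (SE 0.082, adjusted p = 0.143 in limma). Slc46a1, the proton-coupled folate transporter that works with Folr1 in choroid plexus, differed by 0.16 (SE 0.082) with overlapping groups. 3 of 3 thus had a higher mean in SAHA, with 2 that did not overlap (13.6% among all genes) and 0 that passed the test.

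Kl, the FGF23 co-receptor, hardly varied. Its signal was 5.80, 5.83 and 5.91 on SAHA replicates 1, 2 and 3, against 5.84, 5.81 and 5.86 on saline replicates 1, 2 and 3. The difference was 0.014 with a 95% interval of -0.12 to 0.15, and its range of 0.11 over the 6 arrays was smaller than that of 18871 genes. The sign turned to -0.032 after median centring, -0.058 after quantile normalization and -0.080 after cyclic loess normalization. Klb, the co-receptor for FGF21, was at 5.52, 5.58 and 5.61 in SAHA and at 5.25, 5.50 and 5.33 in saline, a difference of 0.21 (SE 0.077, adjusted p = 0.236 in limma). Fgfr1, the receptor that Klotho partners, differed by 0.17 (SE 0.059, adjusted p = 0.219 in limma). Of the 6 measured genes of klotho relatives, FGF receptors and their partners, 6 had a higher mean in SAHA (52.9% among all genes), 3 without overlap (13.6% among all genes) and 0 past the test. Of 7 genes around the prolactin receptor, 4 had a higher and 3 a lower mean in SAHA. They include the ligand Prl and another receptor, Ghr, beside genes that act below the receptor. 1 was higher and 2 were lower without overlap (13.6% and 10.4% among all genes), with 0 past the test. Stat5b, the transcription factor that the prolactin receptor activates, was the higher one, at 0.20 (SE 0.075, adjusted p = 0.248 in limma). The growth hormone receptor Ghr, at -0.17 (SE 0.072), and Socs2, an inhibitor of cytokine receptor signalling, at -0.20 (SE 0.060), had groups that did not overlap, with SAHA lower. Stat5b, Prl and Cish had the widest ranges of the list, and Ghr and Socs2 were picked out after their values were seen. Prl differed by 0.083 (SE 0.14) and Cish by 0.13 (SE 0.12), both with overlapping groups. The adjusted p in limma was 0.276 for Ghr and 0.182 for Socs2.

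**Figure D4:**
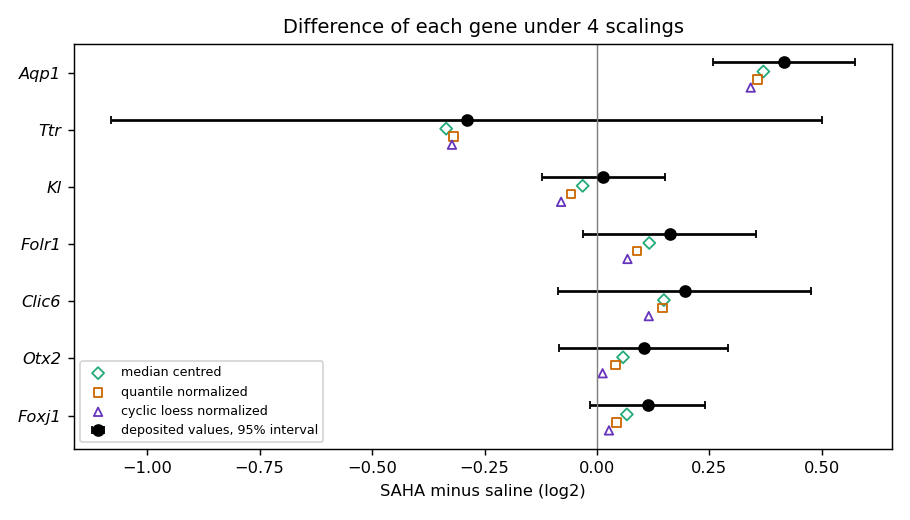
Difference of each gene, SAHA minus saline (log2, x axis), with the 95% interval of the fit on the deposited values in black and the value after 3 other scalings as open symbols. The interval of Aqp1 runs from 0.26 to 0.57, that of Ttr from -1.08 to 0.50, and the open symbols of Kl lie below 0.

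Otx2, the choroid plexus transcription factor, had signals of 5.34, 5.36 and 5.41 on SAHA replicates 1, 2 and 3, against 5.15, 5.43 and 5.22 on saline replicates 1, 2 and 3. The SAHA arrays lay inside the saline range. The difference of 0.10 (95% interval -0.084 to 0.29) was close to the median of 0.11 for its signal decile, and it was 0.012 after cyclic loess normalization. It was 0.045 without saline replicate 1. Of 6 related homeobox genes, 3 had a higher and 3 a lower mean in SAHA, with a median of -0.0078 and 0 past the test. Otx1 differed by 0.015 (SE 0.087) and Crx, its relative of the retina and pineal gland, by 0.030 (SE 0.14). Emx2, a cortical patterning factor, differed by -0.15 (SE 0.12), Gsc by -0.16 (SE 0.073) and Lhx2 by -0.031 (SE 0.087), all with overlapping groups. Msx1, a homeobox gene of the dorsal midline, was at 6.31, 6.45 and 6.46 in SAHA and at 6.12, 5.91 and 5.88 in saline. Its groups did not overlap, and its difference of 0.44 (SE 0.082) had an adjusted p of 0.120 in limma.

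Foxj1, the regulator of motile cilia, had signals of 6.24, 6.23 and 6.27 on SAHA replicates 1, 2 and 3, against 6.15, 6.10 and 6.16 on saline replicates 1, 2 and 3. The groups were narrow and did not overlap, but the difference was small, at 0.11 with a 95% interval of -0.015 to 0.24. Genes in the same signal decile had a median of 0.098, and for Foxj1 quantile normalization gave 0.043 and cyclic loess 0.027.

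Genes of ependyma and motile cilia had a small median difference like that of Foxj1, with wider differences for single genes in both directions. Of 21 measured genes of this list, 18 had a higher and 3 a lower mean in SAHA, where 52.9% of all genes were higher. 8 were higher without overlap and 1 lower (13.6% and 10.4% among all genes). 0 passed in limma, and 8 lay at an unadjusted p under 0.05, as did 3472 of all 19938 genes. Their median difference was 0.086, where the median over their signal deciles was 0.10, and it was 0.012 after cyclic loess normalization. Cfap43, a protein of the ciliary axoneme, was at 6.13, 6.02 and 5.99 in SAHA and at 5.56, 5.94 and 5.74 in saline, a difference of 0.30 (SE 0.10, adjusted p = 0.208 in limma). Rsph4a, a radial spoke protein, went the other way, at 5.61, 5.74 and 5.81 in SAHA and 6.28, 5.93 and 5.87 in saline, a difference of -0.31 (SE 0.11, adjusted p = 0.234 in limma). Dynlrb2, a dynein light chain, had its highest value, 5.76, on SAHA replicate 3, with the other 5 arrays between 5.25 and 5.39. SAHA replicate 3 held the highest value for 10 of the 21 genes, and the mean over the list was 5.83, 5.80 and 5.91 on SAHA replicates 1, 2 and 3, against 5.74 on each saline array. Among factors that act with Foxj1, Trp73, a p53 relative needed for multiciliated cells, differed by 0.23 (SE 0.10), Myb by 0.091 (SE 0.13) and Gmnc by -0.017 (SE 0.10), all with overlapping groups.

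Choroid plexus epithelium genes outside the set split more evenly. Of 24 measured, 15 had a higher and 9 a lower mean in SAHA, with a median of 0.084 where their signal deciles gave 0.099. 0 passed in limma, with a lowest adjusted p of 0.163, and 5 lay at an unadjusted p under 0.05, as did 3472 of all 19938 genes. 5 were higher without overlap and 1 lower (13.6% and 10.4% among all genes). The 5 higher without overlap were Tmem72, Abca4, Spint2, Igf2 and Lbp. The lower one was Car12, a membrane carbonic anhydrase, at -0.28 (SE 0.078). These were picked out after their values were seen, apart from Spint2, a serine protease inhibitor of epithelia. Spint2 was at 7.25, 6.98 and 7.17 in SAHA and at 6.88, 6.94 and 6.73 in saline, a difference of 0.28 (SE 0.089, adjusted p = 0.189 in limma). Krt8, an epithelial keratin, had the widest range, at 8.80, 7.97 and 8.42 in SAHA and 8.50, 8.52 and 8.43 in saline. Cldn2, the claudin of the choroid plexus barrier, was at 5.18, 4.91 and 4.85 in SAHA and at 4.65, 4.82 and 4.95 in saline, with overlapping groups. The median of the list was 0.0029 after cyclic loess normalization and 0.024 without saline replicate 1.

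Genes around the cargo of transthyretin had no rise like that of Ttr on saline replicate 3. The highest of them there lay 0.057 above the mean of the other 5 arrays. Rbp4, the retinol-binding protein that transthyretin carries, was at 7.88, 7.64 and 8.10 in SAHA and at 8.12, 7.86 and 7.95 in saline, so saline replicate 3 was not its highest array. Among the saline arrays Rbp4 was lowest on replicate 2, as Ttr was. Dio2, of the same list, had the order of Ttr in saline, at 8.48, 8.40 and 8.54, within a narrow range. Slco1c1, a thyroxine transporter of brain capillaries and choroid plexus, had a range of 0.069 over the 6 arrays. Of the 7 measured genes of thyroid hormone and retinol carriage, 3 had a higher and 4 a lower mean in SAHA, with a median of -0.00059 and 0 past the test.

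**Figure D5:**
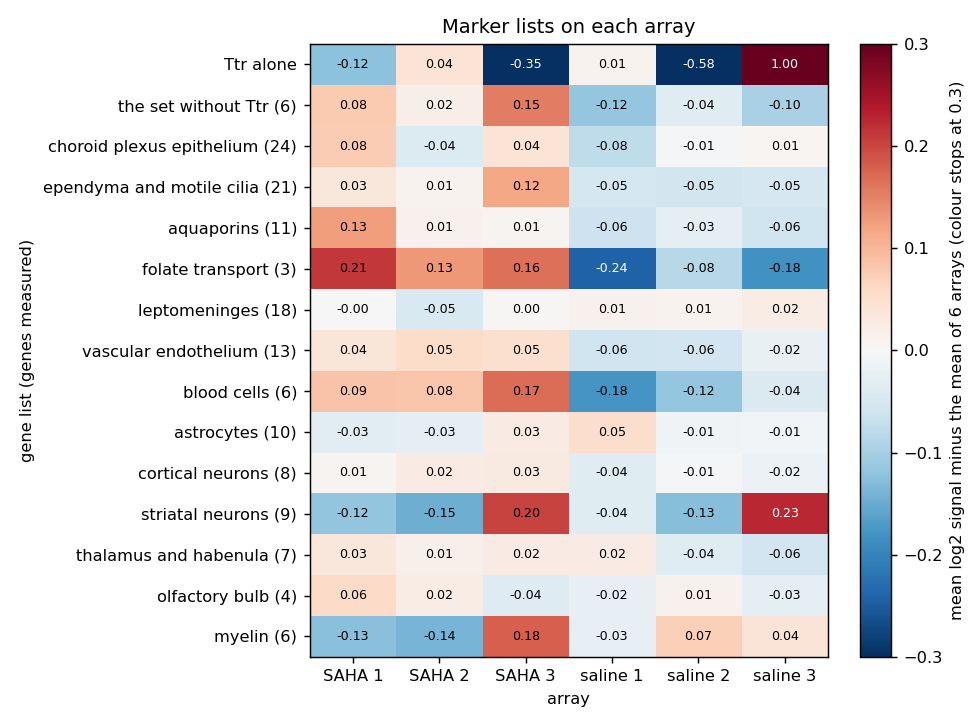
Mean log2 signal of marker lists on each array minus the mean of the 6 arrays (colour, capped at 0.3, with the value printed in each cell; number of genes in brackets; SAHA arrays left, saline arrays right). Ttr has its highest cell on saline replicate 3, where the choroid plexus list stands at 0.01 and the striatal list at 0.23.

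Leptomeninges, which cover the cortex and are taken with it, had 6 of 18 genes higher and 12 lower in SAHA, with a median of -0.017. 3 were higher without overlap and 2 lower (13.6% and 10.4% among all genes), with 0 past the test. The 3 were the fibrillar collagens Col1a1, Col1a2 and Col3a1, at 0.21 (SE 0.065), 0.22 (SE 0.067) and 0.20 (SE 0.063). The 2 were Ogn, a proteoglycan of meningeal fibroblasts, at -0.30 (SE 0.090, adjusted p = 0.177 in limma), and Foxd1, at -0.20 (SE 0.081). The collagens and Foxd1 were picked out after their values were seen. Gjb2, a connexin of meningeal fibroblasts, had overlapping groups and a difference of -0.28 (SE 0.11). The meningeal mean over the list lay between 7.27 and 7.32 in SAHA and between 7.33 and 7.34 in saline. Astrocyte markers had a median difference of 0.0042, myelin genes one of -0.034, markers of thalamus and habenula one of 0.067 and those of olfactory bulb one of 0.072, with 0 genes of these lists past the test. Of 10 astrocyte markers, 3 were higher without overlap and 1 lower (13.6% and 10.4% among all genes). For thalamus and habenula 1 of 7 was higher without overlap, and for myelin and olfactory bulb 0 were. In bulk tissue, fewer cells of a type and less RNA per cell cannot be told apart.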

How the data were processed

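Total RNA of mouse frontal cortex was amplified with a whole-transcript kit and measured on 6 Affymetrix arrays, 3 SAHA and 3 saline, grouped by the sample titles. The deposited values are log2 signals; Affymetrix Expression Console and RMA were used by the authors, per the submitters' processing notes, with no version named. RMA adjusts background, normalises arrays and summarises probes, so a shift on 1 array spreads over its genes. Scan dates are not given in the sources used here.

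The platform annotation gives 1 symbol to 21789 of 35556 probe sets, more than 1 to 1621 and none here to 12146. The brightest single-symbol probe set stood for each of 19938 genes (999 had more than 1). RefSeq Entrez identifiers changed 0 symbols. 0 columns of values were left unused. SAHA minus saline was fitted over all genes with limma 3.58.1 in R 4.3.3 (lmFit, eBayes, no block, two-sided, Benjamini-Hochberg, threshold 0.05), after a test on simulated data. The 95% intervals are those of that fit.

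The genes of the set and all lists were chosen with earlier results of these data known. Genes outside the set are named by a rule: up to 3 per list with the widest range over the arrays, and the 5 nearest profiles to Aqp1 and Ttr among genes no dimmer than the median, without predicted genes or chemosensory receptors. Others are named as textbook markers or as picked out after their values were seen. The labels state no pairing. Correlations across all genes of the deviations from the group mean were -0.105, -0.0792 and 0.015 for same-numbered SAHA and saline arrays. For differently numbered arrays they were between -0.0838 and 0.152, so the numbers were not taken as pairs. Striatal markers were high on replicate 3 of both groups, and a batch shared by same-numbered arrays was not tested.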

Additional observations from a re-analysis of the deposited data

How the results depend on the processing

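limma called 0 genes over all 19938, 27 among genes no dimmer than the median and 28 with a variance trend, and 0 under the other alternatives run, including the replicate block and each array left out. With the replicate block the medians over the set and over the other choroid plexus genes were 0.11 and 0.084, which a block cannot alter in this balanced design. The median over the set, 0.11, was 0.066 after median centring, 0.043 after quantile normalization and 0.027 after cyclic loess normalization, and 0.092 to 0.15 with each array left out. The median over the other choroid plexus genes, 0.084, was 0.038, 0.024 and 0.0029 under the same scalings in that order, 0.024 to 0.11 with each array left out, and 0.0096 without saline replicate 1 and SAHA replicate 3 together, where that of the set was 0.089. The cause of these moves was not tested. The block, the variance trend and the averaging of probe sets leave each difference in the set as it is by construction. Under the other scalings and with arrays left out, the difference of Aqp1 lay between 0.33 and 0.45, and those of Clic6, Folr1, Foxj1 and Otx2 also kept their sign. That of Kl turned sign under 5 of these and that of Ttr under 1. Only Ttr lies at or above the median signal, so no median over the set was taken under that filter. The signal of dim genes limits all of these values, and no detection call was used.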
